A study of Mus musculus with 8 samples.

Results

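Erythroid genes are the genes of developing and mature red blood cells, and 9 of them were followed here in growth plate cartilage of mice. They were the alpha globin gene Hba-a1, the globin chaperone gene Ahsp, the heme synthesis gene Alas2, the red cell membrane genes Slc4a1, Rhag and Rhd, the erythropoietin receptor gene Epor, and the transcription factor genes Gata1 and Klf1. A gene counted as measured when a probe of the array carried one of its RefSeq transcripts. By that rule 8 of the 9 genes had 12 of the 56605 probes on the array, and Ahsp was not analysed here. A gene was tested when a probe stood well above background on at least 4 of the 8 arrays, which 5 genes (Hba-a1, Alas2, Slc4a1, Rhd and Epor) did, among 23105 features tested in all. Rhag was well above background on 0 arrays, Klf1 on 1 and Gata1 on 2.

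Total RNA from femoral growth plates was hybridised to 1-colour Agilent 8x60K arrays, 100 ng per array, from 4 CreTW and 4 Cre littermate mice at 12 days of age. The labels name the genotypes without spelling them out. As background, Cre mice carry a recombinase that acts in cartilage, and CreTW mice also make, where the recombinase acts, a mutant Twinkle, the enzyme that unwinds mitochondrial DNA. The gene of Twinkle, Twnk, differed by -0.10 ± 0.21 on the log2 scale (SE, CreTW minus Cre), and whether its probe reads the mutant form is not given in the sources used here. Between 45.4% and 57.9% of probes were well above background per array, no spot was saturated, and all 15 chondrocyte marker genes listed were measured. Values are log2 of the background-subtracted signal minus the array's 75th percentile, so 0 is that percentile, and levels of different genes cannot be set against each other because they come from different probes. The precision is limited by the number of arrays, 4 per genotype.

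Red blood cells arise in the bone marrow, next to the growth plate, where blood vessels and marrow enter the calcified end of the cartilage. Erythropoietin binds its receptor on erythroid progenitors and keeps them alive. Gata1 and Klf1 then switch on the genes of the later stages, in which the cells make heme and globin chains, build a membrane with band 3 and the Rh proteins, and lose their nucleus. Cartilage itself has no blood vessels. In total RNA from a dissected tissue, fewer erythroid cells and less erythroid RNA per cell cannot be told apart.

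The start regions of 4 tested genes are shown because Gata1 and Klf1 act through short DNA motifs in such regions, and because these 4 genes stand for globin, heme synthesis, membrane and receptor. They are RefSeq sequences of the GRCm38.p6 build, 300 bases each, from 250 before to 50 after the gene start, written on the gene's strand, and 7 of the 9 genes had an entry. They lie at chr11:32283422-32283721 (plus strand) for Hba-a1, chrX:150547167-150547466 (plus) for Alas2, chr4:134864286-134864585 (plus) for Rhd and chr9:21963527-21963826 (minus) for Epor. Capitals mark 3 motifs on either strand. The first is AGATAA, which proteins of the Gata family bind. Another is CCNCACCC, which Klf1 and its relatives bind. The third is the CCAAT box, a common promoter element.
Hba-a1: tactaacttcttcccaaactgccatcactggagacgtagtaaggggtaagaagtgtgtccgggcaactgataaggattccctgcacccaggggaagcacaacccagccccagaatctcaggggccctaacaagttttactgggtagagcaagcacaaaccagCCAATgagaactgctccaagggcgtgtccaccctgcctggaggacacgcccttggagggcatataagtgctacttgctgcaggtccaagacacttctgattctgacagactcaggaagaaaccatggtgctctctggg
Alas2: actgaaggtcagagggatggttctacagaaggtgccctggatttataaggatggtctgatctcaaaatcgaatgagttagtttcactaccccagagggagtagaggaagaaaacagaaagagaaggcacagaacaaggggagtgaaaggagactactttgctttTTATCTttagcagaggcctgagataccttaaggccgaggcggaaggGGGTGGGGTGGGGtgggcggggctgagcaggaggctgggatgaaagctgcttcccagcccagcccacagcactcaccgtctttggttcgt
Rhd: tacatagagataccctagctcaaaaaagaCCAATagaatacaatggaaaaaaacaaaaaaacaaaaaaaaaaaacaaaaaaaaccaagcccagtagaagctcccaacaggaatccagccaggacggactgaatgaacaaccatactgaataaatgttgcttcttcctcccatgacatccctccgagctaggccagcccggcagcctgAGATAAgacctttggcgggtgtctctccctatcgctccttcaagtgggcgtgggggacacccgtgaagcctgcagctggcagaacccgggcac
Epor: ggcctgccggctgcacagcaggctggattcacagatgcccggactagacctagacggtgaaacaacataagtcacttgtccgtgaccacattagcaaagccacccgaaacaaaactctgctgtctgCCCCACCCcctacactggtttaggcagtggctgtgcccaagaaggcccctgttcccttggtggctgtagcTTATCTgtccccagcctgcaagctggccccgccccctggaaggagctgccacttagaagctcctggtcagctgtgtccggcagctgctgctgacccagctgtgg

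AGATAA or its reverse was found in the windows of Alas2, Rhd and Epor, starting at -86, -43 and -54 from the gene start. Of all 32851 windows in the table, 11.2% held it. CCNCACCC was found in the windows of Alas2 (at -40 and -35, where the 2 matches overlap each other), Epor (-124) and Gata1 (-55), against 16.6% of all windows. The CCAAT box was found in those of Hba-a1 (-88), Rhd (-221), Klf1 (-64) and Rhag (-177 and -115), against 37.4% of all windows. A match describes these letters only, and no factor binding was measured. Close variants of AGATAA were not searched or marked, such as TGATAA, which the Hba-a1 window holds. A window without a match is therefore not shown to lack a Gata or Klf1 site.

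All 5 tested erythroid genes had lower mean signals in CreTW than in Cre growth plates, by 0.58 to 0.98 on the log2 scale, and none passed the test across all features (limma, Benjamini-Hochberg adjusted p under 0.05). Of all features, 0.346% passed, 0.229% higher and 0.117% lower in CreTW. At an unadjusted p under 0.05, 2 of the 5 genes (Rhd and Epor) passed, both lower in CreTW, against 10.7% of all features, with 4.8% lower in CreTW. The median difference of the 5 genes was -0.65, and that of all features was -0.0075. Only 3.46% of all features had a difference of -0.5 or below. The genes were chosen with earlier results of these data known, so these counts describe them and test nothing.

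**Figure D1:**
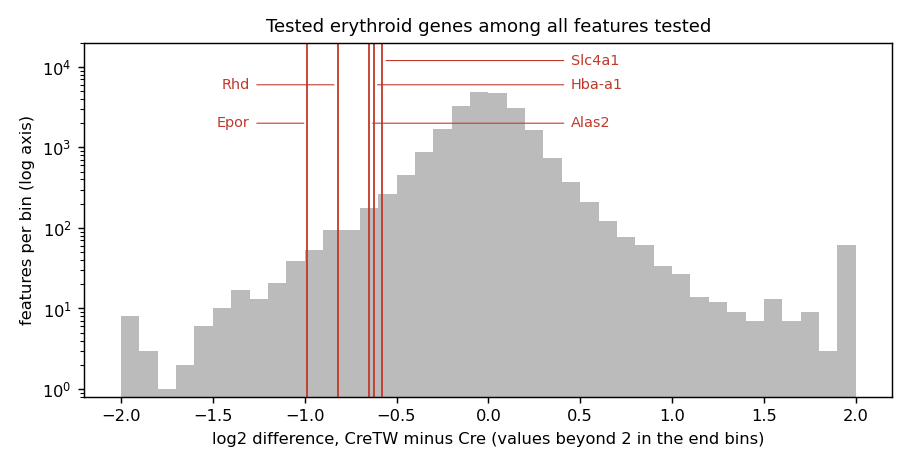
Histogram of the log2 difference (CreTW minus Cre) of 23105 features on a log count axis, with differences beyond 2 gathered in the end bins, and a red line for each tested erythroid gene. The 5 lines lie between -0.98 and -0.58, left of the bulk of features, whose median is -0.0075.

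Hba-a1 encodes the alpha chain of adult haemoglobin. It was well above background on all 8 arrays, at 27129.8 to 57259.6 scanner units in CreTW and 42268 to 71400.5 in Cre. On the log2 scale Hba-a1 stood at 8.55, 7.87, 7.40 and 7.29 in CreTW 1 to 4, against 8.81, 8.33, 8.42 and 8.02 in Cre 1 to 4. The groups overlapped through CreTW 1 alone, which lay above 3 Cre arrays, while the other CreTW arrays lay below every Cre array. Hba-a1 averaged 7.78 ± 0.57 in CreTW and 8.40 ± 0.33 in Cre (SD, n = 4 each), a difference of -0.62 (95% interval -1.27 to 0.03, 1.54-fold lower) that did not pass the test (limma adjusted p = 0.48). A second Hba-a1 probe differed by -0.64. The neighbouring copy Hba-a2 is nearly identical in sequence and its own probe differed by -0.62, so signal from the 2 copies cannot be told apart.

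Alas2 encodes the first enzyme of heme synthesis in erythroid cells, which works inside mitochondria. Alas2 had 1.11, 0.66, 0.31 and -0.046 in CreTW 1 to 4, against 1.62, 1.01, 1.64 and 0.36 in Cre 1 to 4. As for Hba-a1, Cre 4 was the lowest Cre array and CreTW 1 the highest CreTW array, and the groups overlapped. The difference of Alas2 was -0.65 ± 0.34 (SE, 95% interval -1.42 to 0.12), and the limma adjusted p was 0.54.

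Slc4a1 encodes band 3, the chloride and bicarbonate exchanger of the red cell membrane. Slc4a1 had 0.13, -0.30, -0.69 and -1.80 in CreTW 1 to 4, against -0.43, 0.64, 1.19 and -1.77 in Cre 1 to 4. The groups overlapped over most of their range, and CreTW 4 and Cre 4 lay at the bottom together. Its difference of -0.58 (95% interval -2.06 to 0.91, limma adjusted p = 0.77) was smaller than the SD within either genotype (0.83 in CreTW and 1.30 in Cre), and without Cre 3 it was -0.15.

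Rhd encodes a protein of the Rh complex in the red cell membrane, and it was the tested erythroid gene whose groups did not overlap. Rhd had -0.19, -0.17, -0.22 and -0.68 in CreTW 1 to 4, against 0.0015, 0.75, 0.80 and 0.47 in Cre 1 to 4. All CreTW arrays lay below all Cre arrays, as they did for 2.81% of all features, though the gap between CreTW 2 and Cre 1 was small beside the range of the Cre arrays. Rhd averaged -0.32 ± 0.25 in CreTW and 0.51 ± 0.37 in Cre (SD, n = 4 each), which is 1.77-fold lower in CreTW (difference -0.82, 95% interval -1.27 to -0.37). It did not pass the test after adjustment (limma adjusted p = 0.21, unadjusted p = 0.0027). The exact permutation test gave p = 0.0286 (two-sided, 70 arrangements), the smallest p it can give with 4 against 4. Every feature whose groups do not overlap gets this p, so it adds nothing to that separation. For the other tested erythroid genes the same permutation test gave p between 0.11 (Epor) and 0.51 (Slc4a1).

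The second Rhd probe differed by -0.89, and there the groups overlapped, with -2.94 to -1.93 in CreTW and -2.11 to -0.92 in Cre. With another background correction, the normexp method, the first Rhd probe passed at a limma adjusted p of 0.045 (difference -0.68). Rhag encodes the partner protein of the Rh complex. Its single probe was not well above background on any array (2.5 to 6.6 scanner units in CreTW and 3.1 to 6.0 in Cre), so no difference is given for Rhag.

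**Figure D2:**
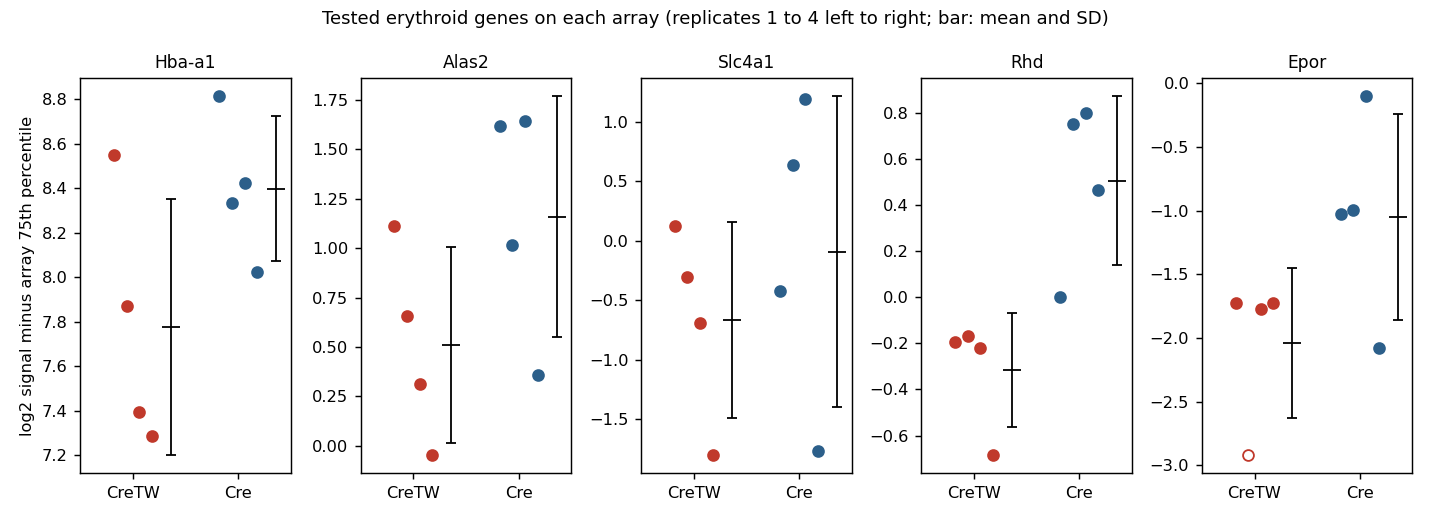
Log2 signal minus the array's 75th percentile for the 5 tested erythroid genes, one point per array with CreTW (red) left of Cre (blue), replicates 1 to 4 from left to right, and bars for mean and SD. The open point marks an array not well above background. Only Rhd shows 2 groups that do not overlap, and its highest CreTW value is -0.17.

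Epor encodes the erythropoietin receptor, which is at work before globin and band 3 are made. Epor had -1.73, -2.92, -1.77 and -1.72 in CreTW 1 to 4, against -1.03, -0.99, -0.10 and -2.08 in Cre 1 to 4. CreTW 2 was not well above background, and the other 3 CreTW arrays lay close together, below 3 Cre arrays and above Cre 4. The difference of -0.98 (95% interval -1.96 to -0.01, unadjusted p = 0.047) did not pass the test (limma adjusted p = 0.46). With CreTW 2 raised to that array's lowest signal well above background, it was -0.91. Epor differed by -0.67 without Cre 3, by -0.69 without CreTW 2 and by -0.45 with normexp, and a second Epor probe was not well above background on any array.

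Gata1 is the transcription factor that drives erythroid and megakaryocyte genes. The Gata1 probe was not well above background on any CreTW array, at -3.51, -3.38, -3.77 and -4.12, and stood at -3.41, -1.83, -0.48 and -5.13 in Cre 1 to 4. It was well above background on Cre 2 and Cre 3 only, with 40.8 and 134 scanner units there, while Cre 4 had the lowest value of all arrays. With every CreTW array raised to its lowest signal well above background, the mean of the 4 Cre arrays was 1.60-fold higher. Cre 1 and Cre 4 entered that mean with values not well above background, so the fold is not a strict bound, and it has no test. Without Cre 3 the fold was 0.954, so that no excess in Cre was left.

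Klf1 is the transcription factor of late erythroid genes, adult beta globin among them. Its brighter probe had -3.50, -3.69, -4.39 and -4.50 in CreTW 1 to 4, against -4.19, -3.62, -2.41 and -3.48 in Cre 1 to 4. Both Klf1 probes were well above background on Cre 3 alone, so no fold is given.

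**Figure D3:**
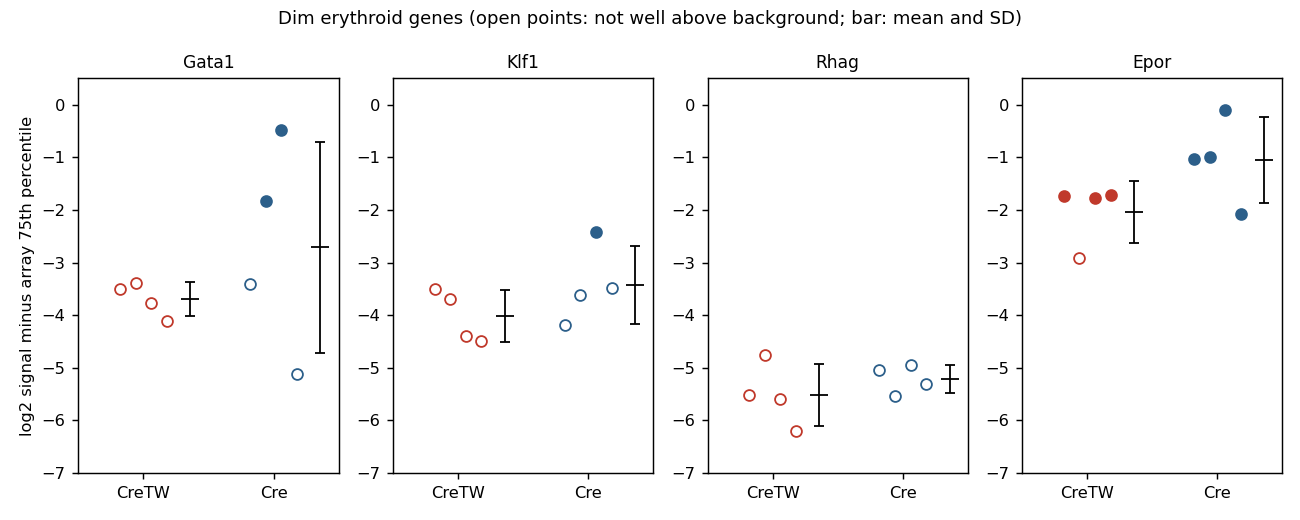
Log2 signal minus the array's 75th percentile for Gata1, Klf1, Rhag and Epor, with CreTW (red) left of Cre (blue), filled points for arrays well above background and open points for the others, and bars for mean and SD. The highest Gata1, Klf1 and Epor values (-0.48, -2.41 and -0.10) are all on Cre 3, and every Rhag point is open.

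Globin was set against the earlier genes by taking Hba-a1 minus each of them within each array, so that the scaling of the array drops out. Hba-a1 minus Epor was 10.28, 10.79, 9.17 and 9.01 in CreTW 1 to 4, against 9.84, 9.33, 8.53 and 10.10 in Cre 1 to 4. The groups overlapped widely, and the mean was higher in CreTW by 0.36 (exact permutation test, two-sided, p = 0.54, adjusted over 3 pairs 0.94). With normexp it turned to -0.18. Gata1 and Klf1 were well above background on no CreTW array, so Hba-a1 minus Gata1 (0.37 higher in CreTW) and Hba-a1 minus Klf1 (-0.03) rest on dim signals. Their exact permutation p, 0.69 and 0.94, were counted in the adjustment and are not read further. Without Cre 3, Hba-a1 minus Gata1 turned to -0.37, and with normexp it was -0.31 and Hba-a1 minus Klf1 was -0.46. A difference between Hba-a1 and Epor in their response was not detectable with 4 arrays a genotype.

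The erythroid genes varied together to different degrees from array to array. Hba-a1 and Alas2 were the closest of 10 pairs (Pearson r = 0.91, permutation p = 0.0027, adjusted 0.027, and Spearman rho = 0.90, permutation p = 0.0046, adjusted 0.046, over 8 arrays). Their r was 0.83 without CreTW 4 and CreTW 3, the arrays farthest from the median of Hba-a1, and 0.86 after each genotype's mean was taken out. Within the 2 slide rows, of 4 arrays each, it was 0.96 and 0.87. Alas2 and Slc4a1 followed at r = 0.79 and rho = 0.81 (permutation p = 0.021 and 0.022, adjusted 0.11 for both), but their r was -0.25 within slide row 1 and 0.94 within slide row 2. The r of the other 8 pairs lay between 0.48 and 0.66, and none passed after adjustment. After each genotype's mean was taken out, several of these fell. The r was then 0.06 for Hba-a1 and Rhd, 0.11 for Rhd and Epor, 0.16 for Hba-a1 and Epor, and 0.18 for Alas2 and Rhd. It was between 0.48 and 0.66 for the remaining pairs, which also rested on few arrays. Without the 2 arrays farthest from the median of the first gene named, r before centring was 0.05 for Slc4a1 and Rhd. It was then 0.35 for Hba-a1 and Slc4a1, 0.39 for Slc4a1 and Epor, and 0.60 for Alas2 and Epor. For Alas2 and Slc4a1 it was 0.54. The mean over the 5 genes, each centred on its own mean, was highest on Cre 3 (0.97) and lowest on CreTW 4 (-0.81), and Cre 4 (-0.42) lay among the CreTW arrays.

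Among 14122 other features with a gene symbol, the 5 most like Hba-a1 over the 8 arrays were Hba-a2 (r = 0.9997), the beta globin genes Hbb-b2 (0.98) and Hbb-b1 (0.98), Skil (0.97), which encodes a repressor of SMAD signalling, and Zdhhc22 (0.96), which encodes a palmitoyltransferase. Skil differed between the genotypes by only -0.09. Among those most like the mean of the 5 erythroid genes were Kcnh2 (0.98), which encodes a potassium channel, Selenop (0.98), which encodes a selenium transport protein, Tmpo (0.96) and Olfr1229 (0.96). These are the highest values out of many, over few arrays, and are given as a description.

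Around these genes, 85 further genes of 7 erythroid lists were tested. None passed after adjustment, 14 of the 85 had an unadjusted p under 0.05, against 10.7% of all features, and 54 of the 85 had a negative difference, against 51.6% of all features. Their median difference was -0.10.

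The globin list had 6 tested genes, all with negative differences and a median of -0.67. Hba-a1 and Hba-a2 were its 2 brightest. The other 3 adult globin entries, named after their values were seen, were the beta globin entries Hbb-b1 (difference -0.72 ± 0.26, SE), Hbb-b2 (-0.70 ± 0.26) and Hbb-bt (-0.64 ± 0.28). Their limma adjusted p lay between 0.38 and 0.45. Hbb-b1 had 3.26, 2.67, 2.20 and 2.07 in CreTW 1 to 4, against 3.56, 3.40, 3.17 and 2.93 in Cre 1 to 4. As with Hba-a1, CreTW 1 alone overlapped the Cre arrays. The sixth gene, Hp, encodes haptoglobin, a haemoglobin-binding plasma protein that is not a globin (-1.11 ± 0.55, adjusted p = 0.52). The 3 beta globin entries are also close in sequence, so their signals cannot be told apart and they do not count as 3 separate results. In this list, 5 genes were well above background on no array.

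The heme synthesis list had 14 tested genes, of which 12 had negative differences, with a median of -0.14. Its 2 brightest were Tmem14c, which moves a heme precursor into mitochondria, and Urod, an enzyme of the pathway. Tmem14c averaged 4.88 in CreTW and 5.13 in Cre, without overlap (difference -0.25 ± 0.08, SE, limma adjusted p = 0.31), and Urod differed by -0.10 ± 0.08 (adjusted p = 0.66). Beside Tmem14c, 3 genes named after their values were seen had an unadjusted p under 0.05. These were Alas1, the form of the first enzyme in most tissues (-0.28), Abcb6, a porphyrin transporter (-0.22), and Alad, the second enzyme (-0.19). Their differences were smaller than that of Alas2, and the heme pathway is used by cells of every kind.

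**Figure D4:**
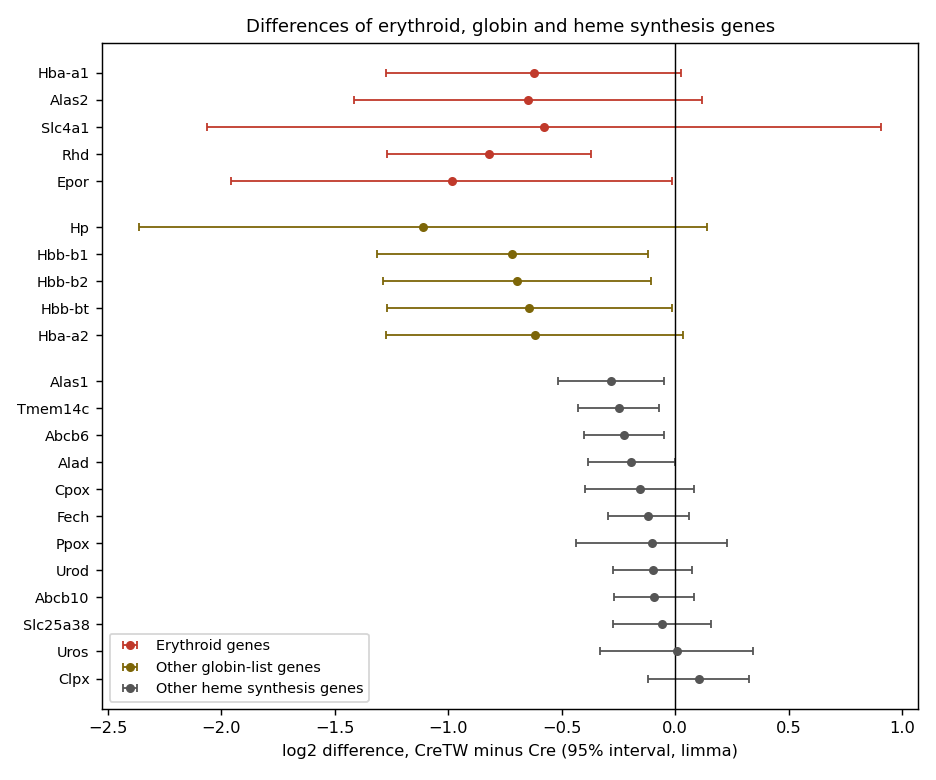
Log2 difference (CreTW minus Cre) with its 95% limma interval for the 5 tested erythroid genes (red), other genes of the globin list (brown) and 12 other heme synthesis genes (grey), with a line at 0. The globin genes lie between -0.72 and -0.62, and the grey heme synthesis genes between -0.28 and 0.10.

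Of 15 erythroid transcription factor genes tested, 12 had negative differences (median -0.31). The brightest were Klf3 (0.02 ± 0.10, SE) and Mxi1 (-0.13 ± 0.10), a repressor of MYC targets. The lowest, named after its value was seen, was Gfi1b, a repressor needed for red cells and platelets (-1.13 ± 0.53, limma adjusted p = 0.49), which was well above background on 5 of 8 arrays. Gfi1b, like Gata1, was highest on Cre 3 (-1.08), then Cre 2 (-1.79).

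Of 15 iron genes, 7 had negative differences (median 0.03). The ferritin genes Ftl1 (0.11 ± 0.10) and Fth1 (0.16 ± 0.09) were the brightest. Tfr2, a transferrin receptor that binds the erythropoietin receptor, was named after its value was seen and had an unadjusted p of 0.013 (-0.63 ± 0.20, limma adjusted p = 0.33). Tfrc, the receptor through which erythroblasts take up iron, differed by -0.27 ± 0.17.

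Of 14 membrane and skeleton genes, 8 had negative differences, Slc4a1 and Rhd among them. The brightest were the water channel gene Aqp1 and Epb41, which encodes protein 4.1 (-0.17 ± 0.09). Aqp1 had 5.80, 5.74, 6.09 and 5.74 in CreTW 1 to 4, against 5.70, 5.11, 5.17 and 5.40 in Cre 1 to 4. All CreTW arrays were above all Cre arrays, as for 3.89% of all features, and opposite to Rhd (difference 0.50 ± 0.15, limma adjusted p = 0.29). Aqp1 is also made by endothelial cells and chondrocytes. Ank1, the ankyrin that ties band 3 to the red cell skeleton, was named after its values were seen and differed by 1.53 ± 0.52 (adjusted p = 0.35). Ank1 had -2.16, 0.57, -0.45 and -1.04 in CreTW 1 to 4, against -2.44, -2.43, -1.66 and -2.66 in Cre 1 to 4, so the high arrays were CreTW 2, 3 and 4. Skeletal muscle, which also uses an ankyrin of this gene, had its markers highest on the same 3 arrays. The part of muscle RNA in the Ank1 difference was not tested.

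Of 13 genes of erythropoietin signalling, 6 had negative differences, Epor included. The brightest were Bcl2l1, a survival gene downstream of the receptor (0.08 ± 0.14), and Stat5a, which carries the signal to the nucleus (0.09 ± 0.30). Pim1, a kinase gene that STAT5 induces, was named after its values were seen and averaged 2.80 in CreTW and 2.12 in Cre without overlap (difference 0.68 ± 0.13, limma adjusted p = 0.11), opposite in sign to Epor. Many cytokines act on Pim1, in many cell types. Of 13 genes of red cell enzymes and maturation, 8 had negative differences (median -0.04). The brightest were the peroxiredoxin gene Prdx2 (-0.15 ± 0.11) and Hemgn, an erythroid nuclear factor (-0.21 ± 0.12), and Bnip3l, which clears mitochondria from reticulocytes, was named after its value was seen (-0.25 ± 0.11, unadjusted p = 0.047).

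Markers of other blood and marrow cells moved with some of the erythroid genes. Each marker list is given by its mean centred value per array, and no marker gene of the 10 lists passed the test. The neutrophil list (11 of 13 genes tested) spanned -0.99 to 0.88 in CreTW and -2.11 to 2.33 in Cre, the B lineage list (7 of 10) -0.88 to 0.42 in CreTW and -0.80 to 1.30 in Cre, and the megakaryocyte list (5 of 11) -0.19 to 0.08 in CreTW and -0.21 to 0.46 in Cre. All 3 were highest on Cre 3, the array with the highest Slc4a1, Rhd, Epor, Gata1 and Klf1. Alas2 was also highest there (1.64, against 1.62 on Cre 1), and Hba-a1 was not. The monocyte and macrophage list (12 of 14) spanned -0.58 to 0.15 in CreTW and -0.58 to 0.58 in Cre, and it too was highest on Cre 3. In each of these 4 lists, 1 gene was well above background on no array.

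The osteoclast list (10 of 11) spanned -1.25 to 0.31 in CreTW and -0.54 to 0.75 in Cre, and all 10 genes had negative differences (median -0.82). Osteoclasts break down calcified cartilage and bone where marrow enters. Epor had r = 0.90 with the monocyte and macrophage list and 0.86 with the osteoclast list over the 8 arrays, and Hba-a1 had 0.34 and 0.26. The part of these cells in the erythroid differences was not tested.

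The skeletal muscle list (11 of 11) stood at -1.04, 3.21, 2.75 and 1.74 in CreTW 1 to 4, against -2.06, -2.84, 0.26 and -2.03 in Cre 1 to 4. CreTW 2, 3 and 4 were the arrays with the highest muscle markers and the lowest Hba-a1, with r = -0.72 between that list and Hba-a1. Among the Cre arrays, Cre 3 had the highest muscle value (0.26), while its Hba-a1 (8.42) lay above those of Cre 2 and Cre 4. The part of muscle RNA in the erythroid differences was not tested. The perichondrium, tendon and fibroblast list (9 of 9) spanned 0.19 to 0.32 in CreTW and -0.60 to 0.05 in Cre, with all CreTW arrays above all Cre arrays. The mean of the 5 erythroid genes had r = -0.77 with that list, -0.52 with muscle, 0.78 with B lineage and 0.77 with megakaryocytes over the 8 arrays, and the part of these cells was not tested either. Every r with a marker list is over both genotypes together, so a difference between the genotypes in both quantities enters it. No r within a genotype was computed for the marker lists. The endothelium list (10 of 10) spanned -0.42 to 0.44 in CreTW and -0.40 to 0.26 in Cre, the osteoblast list (9 of 9) -0.58 to 0.55 in CreTW and -0.49 to 0.51 in Cre, and the chondrocyte list (15 of 15) -0.43 to 0.14 in CreTW and -0.33 to 0.63 in Cre.

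**Figure D5:**
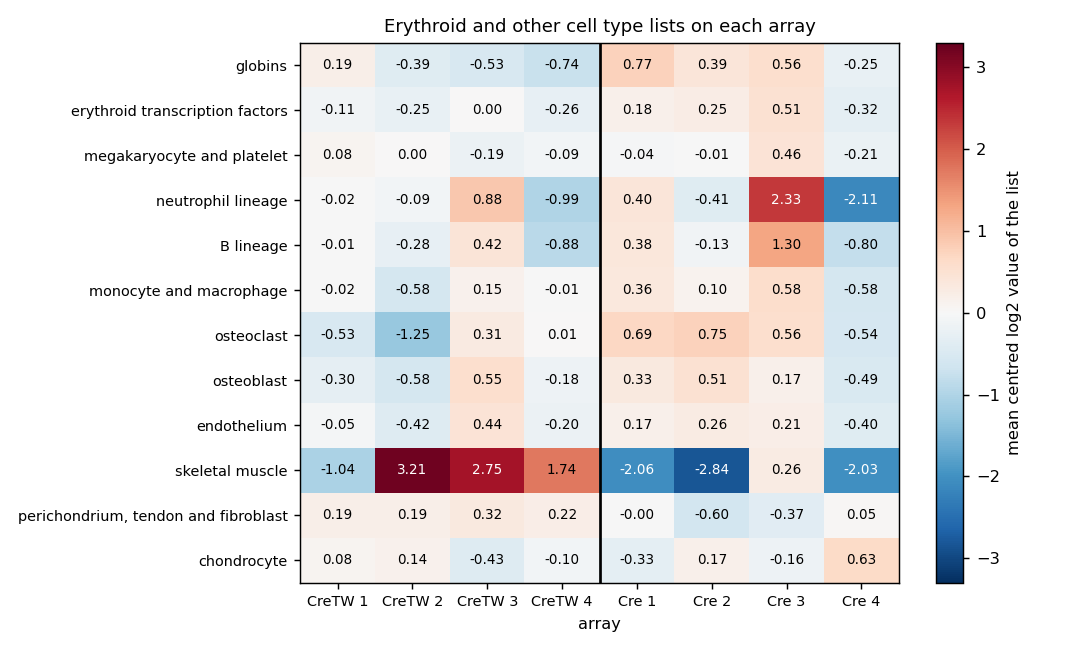
Mean centred log2 value of the globin and erythroid transcription factor lists and of 10 cell type marker lists (rows) on each array (columns, CreTW left of the line and Cre right of it), red for above and blue for below the list's mean over the 8 arrays. The globin list is highest on Cre 1 (0.77), the transcription factor list on Cre 3 (0.51), and the muscle list on CreTW 2 (3.21).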

How the data were processed

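The authors' scanner files hold background-subtracted spot intensity of 1 colour, from Agilent Feature Extraction (version 11.5.1.1, mm9 design, as their headers state). Well-above-background, saturation and outlier flags are from the same deposited files. The authors used GeneSpring 14.9, per the labels. Their deposited log2 value table was that intensity on a log2 scale, shifted array by array (r = 1.00 on 8 arrays, medians -3.03 to -2.93, genes not centred). Its median difference from the values used here was 0.0030 to 0.0056 by array. The table served as an alternative, but it nearly repeats the values used here and is no separate check.

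Here, spots of a probe were averaged without outlier flags, put on the log2 scale and set relative to the 75th percentile of their array. Probes well above background on at least 4 arrays were kept, named through RefSeq transcripts (GRCm38.p6, names only), and a gene with several was given by its brightest. Genotypes were compared with limma 3.58.1 (lmFit, eBayes, R 4.3.3) over 23105 features with Benjamini-Hochberg adjustment, tested on simulated data. Replicate numbers were not used to pair the samples (correlation of deviations of same-numbered arrays -0.10 to 0.31). These values cannot exclude a pairing. The genes and lists were chosen with earlier results of these data known. From each pathway list, genes past the threshold or else the 2 brightest were named by rule, and 1 gene is not reported here. Alternatives changed scaling, background correction, filter, probe choice, blocks, moderation, weights and arrays.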

Additional observations from a re-analysis of the deposited data

Results flagged for a closer look

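In groups of 4 arrays, 5 values lay far from the other 3 by Dixon's criterion, among 70 groups examined, and chance alone marks about 1 group in 20. Rhd was lowest on CreTW 4, at -0.68, where the other CreTW arrays stood between -0.22 and -0.17. Epor was lowest on CreTW 2, at -2.92, not well above background there, against -1.77 to -1.72 on the other CreTW arrays. Aqp1 was highest on CreTW 3, at 6.09, against 5.74 to 5.80 on the others. The osteoclast list was lowest among Cre arrays on Cre 4, at -0.54, against 0.56 to 0.75, and the endothelium list was lowest on the same array, at -0.40, against 0.17 to 0.26.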

How the results depend on the processing

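All 5 tested erythroid genes kept a negative difference under each alternative that gave them a value, and none passed the adjusted threshold except Rhd with normexp, which made 1 erythroid gene past the threshold. Normexp was run on the median spot and background signals. Leaving out 1 array at a time, Hba-a1 spanned -0.88 to -0.46, Alas2 -0.92 to -0.46, Slc4a1 -1.13 to -0.15, Rhd -0.99 to -0.70 (limma adjusted p 0.087 to 0.52) and Epor -1.33 to -0.67. Epor has no value when a probe must be well above background on all 8 arrays. The median of the 5 genes spanned -0.92 to -0.46 without single arrays and -0.95 to -0.43 under the other settings. Within slide row 1 and row 2, of 2 mice per genotype each, Hba-a1 differed by -0.36 and -0.88, Alas2 by -0.43 and -0.87, Slc4a1 by -0.19 and -0.96, Rhd by -0.56 and -1.09, and Epor by -1.31 and -0.66. Of all features, 80 passed the threshold, against 27 with no filter on dim probes (more features tested), 53 with the slide row as a block, 0 in either row alone (fewer arrays), 127 with array weights, and 42 to 75 without single arrays. A replicate block was fitted, although the numbers are not known to pair the samples. With it 12 features passed, none of them one of the 5 erythroid genes. The limma unadjusted p depended on this choice. With the block it was 0.0066 for Hba-a1 (0.059 without it) and 0.016 for Alas2 (0.087 without it), with limma adjusted p of 0.34 and 0.40. Signs turned for 3 other named genes and for Hba-a1 set against the earlier genes. Bcl2l1 was -0.073 with the mean of a gene's probes, -0.0022 in row 2 alone and -0.0096 to 0.20 without single arrays. Klf3 was -0.021 in row 1 alone and -0.047 to 0.073 without single arrays, and Stat5a was -0.093 to 0.26. Hba-a1 minus Epor was -0.18 with normexp. Hba-a1 minus Gata1 was -0.31 with normexp and -0.37 to 1.05 without single arrays, and Hba-a1 minus Klf1 was -0.46 with normexp and -0.36 to 0.36 without single arrays. The fold of Gata1 in Cre over the raised CreTW arrays, recomputed without single Cre arrays, an alternative chosen after seeing the data, was 0.954 to 2.79. Background correction with normexp compresses dim signals by construction, and it was also run on other signal columns. The cause of the turned signs was not tested under any setting. Signal over background limits Gata1, Klf1 and Rhag.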
